A study of Mus musculus with 15 samples.

Results

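The comparison was between the testes of mice labelled TSA and the testes of mice labelled MTX, 3 libraries of each, out of 15 libraries in the series. All 6 libraries came from whole testes of the C57/BL6 strain, and the treatment was the label by which the groups differed. The labels do not spell out MTX or TSA and give no dose, age or length of treatment. The other groups of the series, Control, AA and HMS-I1, with 3 libraries each, were used to estimate the spread and as a background for levels. The HMS-I1 libraries were grouped by their titles, though their treatment field differs from library to library, and their spread enters each SE and p of the fit over 15 libraries. The labels do not state whether replicates of a group came from separate animals, so p-values and errors measure only how far these libraries differ, and that spread may be technical. Genes were kept where their mean across the 15 libraries was 10 or more, which 17896 of the 36118 genes in the table reached. The values are normalised counts, and differences are TSA minus MTX on the scale log2(value + 1), where 1 unit is a doubling for a gene well above 0.

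Sperm develop in the seminiferous tubules of the testis in a fixed order. Spermatogonia divide, spermatocytes pair and recombine their chromosomes in the long prophase of meiosis, and the haploid round spermatids that follow build the acrosome, a cap of enzymes and membrane proteins with which the sperm later meets the egg. Spermatids then elongate, grow a flagellum and replace their histones first by transition proteins and then by protamines. Sertoli cells nurse the germ cells within the tubule, and Leydig cells make testosterone between the tubules.

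The testis label was borne out by germ cell genes in each library, with the germ cell helicase Ddx4 at 13696 to 31283 normalised counts and the germ cell lactate dehydrogenase Ldhc at 80489 to 179159. Replicate 1 of both groups stood apart from replicates 2 and 3. Histone genes had a mean log2 value of 7.79 in MTX replicate 1 and 8.62 in TSA replicate 1, against 2.95 to 3.72 in the other 4 libraries. Mitochondrially encoded genes made up 1.11% and 1.39% of the total in those replicates, against 4.52% to 13.7%. The libraries are called histone-rich and mitochondria-rich here. Column totals ran from 2.75e+07 to 4.06e+07 over the 6 libraries, and sequencing depth is unknown. The commonest value above 0 was 2.62 in MTX replicate 1 and 2.27 in TSA replicate 1, and 0.526 to 0.645 in the other 4. Between libraries of equal number, log2 values correlated across genes at 0.962, 0.934 and 0.957 for numbers 1, 2 and 3. Within TSA the correlations were 0.829, 0.871 and 0.946, and within MTX 0.878, 0.908 and 0.925. Libraries thus resembled their namesake in the other group more than most libraries of their own group, and differences are given by replicate number as well as by group.

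By group, no gene passed. In the limma fit over 15 libraries, 0 of 17896 genes (0%) had an adjusted p under 0.05, and the smallest adjusted p was 0.983. At an unadjusted p under 0.05, 101 genes (0.564%) were higher in TSA and 793 (4.43%) were lower. The 3 TSA values all lay above the 3 MTX values in 348 genes (1.94%) and all below in 356 genes (1.99%). The replicate number as a block also gave 0 calls. The fit that left out TSA replicate 1 called 767 genes, 1 higher (0.00559%) and 766 lower (4.28%). That fit set TSA replicates 2 and 3, both mitochondria-rich, against an MTX group that still held its histone-rich replicate. With both replicates 1 left out and the mitochondria-rich libraries alone in the fit, 4 genes were called lower (0.0224%) and 0 higher.

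By replicate number, the comparison took different forms. TSA replicate 1 was over 1 unit higher than MTX replicate 1 in 641 genes (3.58%) and over 1 unit lower in 942 (5.26%). For replicate 2 the counts were 744 higher (4.16%) and 2838 lower (15.9%), and for replicate 3 they were 423 higher (2.36%) and 2337 lower (13.1%). Quantile normalisation gave 1317 higher and 2139 lower for replicate 2 and 851 higher and 1753 lower for replicate 3, so the lower side was the larger there too. The genes over 1 unit lower in both replicates 2 and 3 numbered 1677 (9.37%), which is 59.09% of those lower in replicate 2 and 71.76% of those lower in replicate 3. Of these 1677, the difference in replicate 1 was within 0.5 units in 1304 (7.29% of all genes) and below -1 in 65. Only 92 genes (0.514%) were over 1 unit higher in both. Across genes, the differences of replicates 2 and 3 correlated at 0.608 (Pearson), those of 1 and 2 at -0.0402 and those of 1 and 3 at -0.00233. These are descriptions over 17896 genes of 6 libraries, and genes are not independent.

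**Figure D1:**
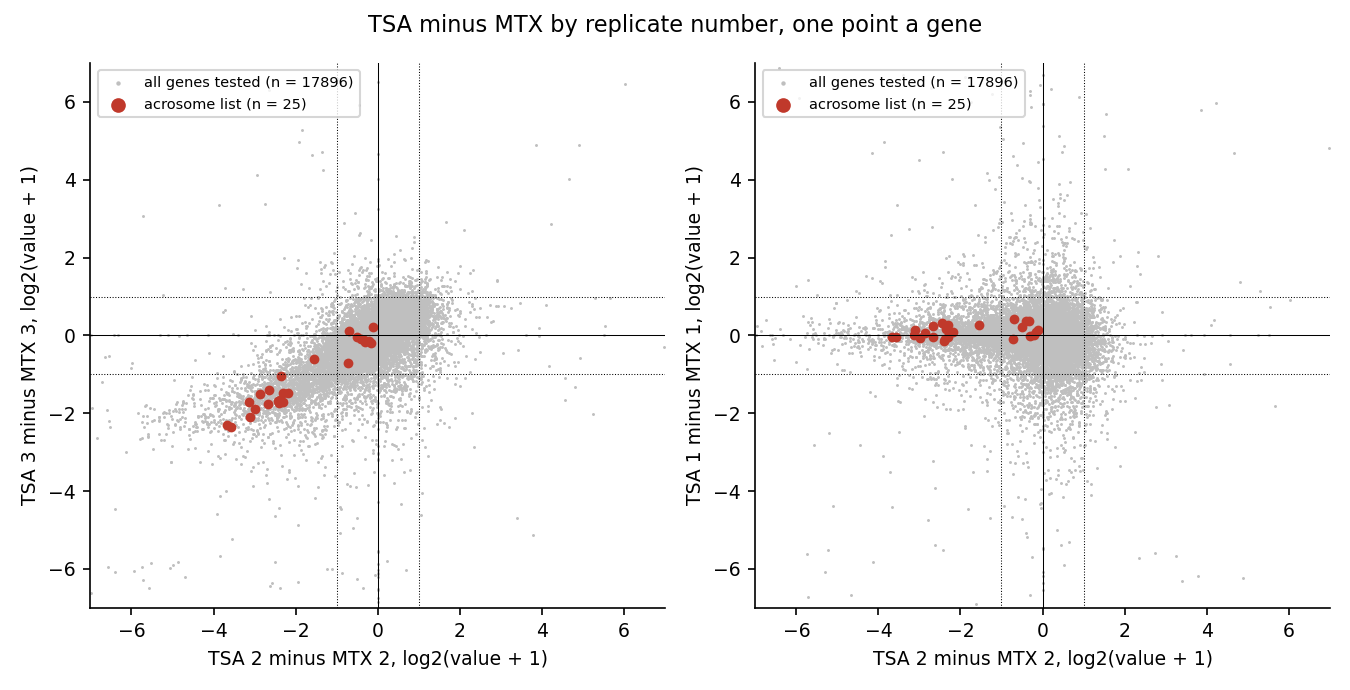
Difference TSA minus MTX, in log2(value + 1), for replicate 3 against replicate 2 (left) and for replicate 1 against replicate 2 (right), with a point for each of 17896 genes and the 25 acrosome genes in red. Dotted lines mark 1 unit, and 23 genes (left) and 39 genes (right) lie beyond the axes. Genes that were low in replicate 2 were mostly low in replicate 3 as well (correlation 0.608), while their replicate 1 difference stayed near 0.

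The acrosome list had the lowest median of the 39 gene lists in replicates 2 and 3. Of 25 acrosome genes measured, 0 passed the test, 24 were lower in TSA by the group means and 1, Gopc, was higher, with a median of -1.25 against -0.000959 for all genes tested, of which 50.1% were lower and 49.9% higher on average. By replicate number the medians were 0.08, -2.31 and -1.48. None of the 25 was over 1 unit lower in replicate 1, where 25 of 25 lay within 0.5 units, but 16 were in replicate 2 and 15 in replicate 3. Where 9.37% of all genes were over 1 unit lower in both, 15 of the 25 were. In a whole-testis library, fewer cells of a type and less RNA per cell cannot be told apart. Without TSA replicate 1 the group median was -2.11, and without TSA replicate 2 it was -0.38. Without MTX replicate 1 it was -0.74.

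The acrosome genes with the smallest p show the pattern. Acrv1 (ENSMUSG00000032110, chromosome 9), a protein of the acrosomal matrix, stood at 5956, 1019 and 2226 normalised counts in TSA replicates 1, 2 and 3 and at 6190, 8062 and 8244 in MTX. TSA replicate 1 was close to MTX replicate 1, TSA replicates 2 and 3 were far below it, and the groups did not overlap. The group difference was -1.64 (SE 0.47), with an adjusted p of 0.983 (limma). Over the alternatives, the adjusted p of Acrv1 ran from 0.00538, without TSA replicate 1, to 1. Eqtn (ENSMUSG00000028575, chromosome 4), an acrosomal membrane protein that takes part in sperm and egg contact, stood at 5005, 789 and 940.2 in TSA and 5181, 9344 and 4844 in MTX. Here too the low values were TSA replicates 2 and 3, and TSA replicate 1 kept the groups from separating. Its difference was -1.99 (SE 0.57), and its adjusted p ran from 0.00496, without TSA replicate 1, to 1 (limma).

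Further acrosome genes, chosen after their values were seen, ran the same way. Izumo1, the sperm protein that binds the egg receptor, was at 3104, 329.7 and 884 in TSA and at 3075, 2919 and 2882 in MTX. The differences by number were 0.01, -3.14 and -1.70. Spaca1, needed to shape the acrosome, was at 5719, 1415 and 1844 against 5461, 10393 and 5232. Hyal5, a sperm hyaluronidase, was at 5426, 409 and 712 against 5556, 5205 and 3540. Spam1, another hyaluronidase of the sperm head, was at 4113, 901 and 918 against 4384, 4713 and 2921. In each of these genes TSA replicate 1 was within 0.1 units of MTX replicate 1, and TSA replicates 2 and 3 were both below every MTX library.

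Other genes of the same organelle were nearly level between the groups. Spata16, which takes part in acrosome formation, stood at 11009, 12188 and 9915 in TSA and 10332, 13603 and 11364 in MTX. Acrbp, the binding partner of the acrosomal protease, stood at 7868, 7381 and 8130 against 6135, 9338 and 8900. The protease itself, Acr, was at 2881, 3204 and 3389 against 2246, 4232 and 3630. Zpbp2, of the acrosomal matrix, was at 9461, 7017 and 7555 against 9615, 8711 and 8520. Acr and Zpbp2 were chosen after their values were seen. Of the 25 genes, 9 lay within 1 unit in both replicates 2 and 3, but most differences ran in the same direction. TSA was lower in 25 of the 25 in replicate 2 and in 23 in replicate 3. In 19 of the 25, TSA replicates 2 and 3 were both below MTX replicates 2 and 3. The nearly level genes named here were lower in both pairs too, by 0.10 to 0.40 units.

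**Figure D2:**
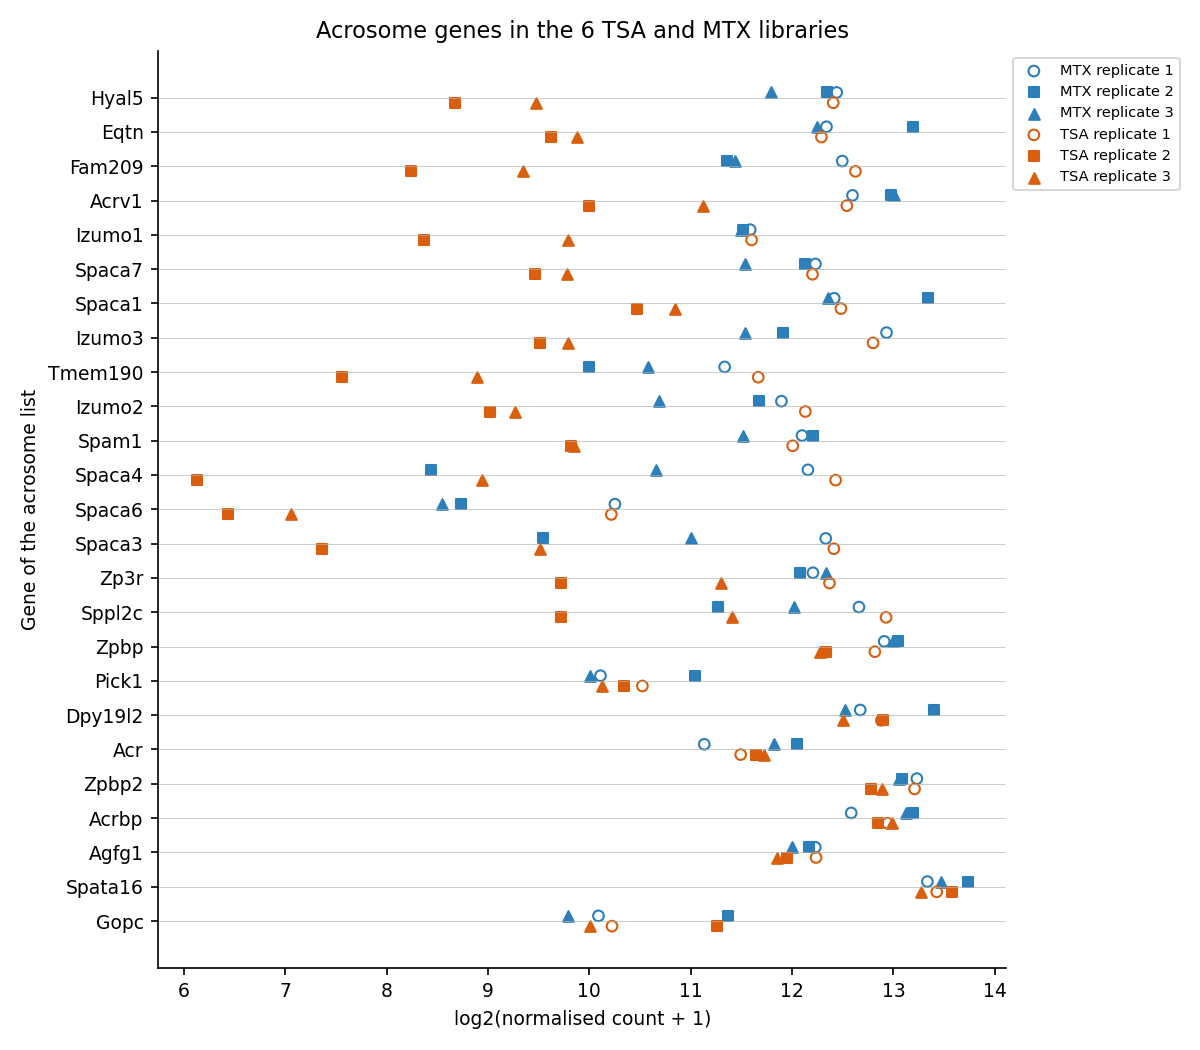
Each of the 25 acrosome genes in the 6 libraries, as log2(normalised count + 1), ordered by the mean difference of replicates 2 and 3. Blue marks are MTX and orange marks TSA, circles replicate 1, squares replicate 2 and triangles replicate 3, and in the upper rows the orange squares and triangles stand apart to the left.

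Promoter sequence is shown for 3 of the low genes and 1 of the nearly level genes. Crem, a transcriptional activator of round spermatids that acts through cAMP response elements, was itself low in TSA replicates 2 and 3. Whether Crem has a part in the low genes was not tested. The lines give the 150 bases before the start of each gene, 5′ to 3′ on the gene's strand, from RefSeq on GRCm38.p6. The core of the element, TGACG on either strand, is in capitals. The windows are chr7:45621661-45621810 (plus strand) for Izumo1, chr4:34050066-34050215 (minus) for Spaca1, chr9:36693070-36693219 (plus) for Acrv1 and chr6:125049777-125049926 (plus) for Acrbp.
Izumo1: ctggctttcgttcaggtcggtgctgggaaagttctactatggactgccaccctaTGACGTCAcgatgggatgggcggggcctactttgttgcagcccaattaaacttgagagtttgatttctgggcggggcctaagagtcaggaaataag
Spaca1: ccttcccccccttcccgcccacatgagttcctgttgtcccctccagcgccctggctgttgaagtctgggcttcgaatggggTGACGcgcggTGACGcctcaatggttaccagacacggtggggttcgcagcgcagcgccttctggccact
Acrv1: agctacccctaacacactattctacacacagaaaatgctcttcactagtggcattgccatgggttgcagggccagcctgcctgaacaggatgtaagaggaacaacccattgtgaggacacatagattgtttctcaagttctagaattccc
Acrbp: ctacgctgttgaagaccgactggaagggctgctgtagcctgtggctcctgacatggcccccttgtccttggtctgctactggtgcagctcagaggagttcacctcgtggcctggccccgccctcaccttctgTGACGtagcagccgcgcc

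In these windows Izumo1 held the full palindrome TGACGTCA, in which copies of the core on both strands overlap, starting 96 bases before the start. Spaca1 held the core at 69 and 59 bases before the start. The nearly level gene Acrbp held it at 18 bases, and the window of the low gene Acrv1 had no match. Within 150 bases, 13.3% of 32851 RefSeq promoters held TGACG on either strand and 1.36% held TGACGTCA. Over 250 bases, TGACG was found in 23.6% of the 13001 tested genes with a promoter and in 14.1% of the 987 of them that were over 1 unit lower in both replicates 2 and 3. The palindrome was found in 2.35% and 1.82%, and the TATA motif TATAAA, on either strand, in 7.35% and 11.1%. The X-box, the element bound by RFX factors, was found in 0.423% and 0.709%. The promoters of the low genes were poorer in CpG, with a median of 3 CpG dinucleotides in 250 bases against 14 for all tested, and a median GC content of 48.4% against 58.4%. The core TGACG itself holds a CpG, so its smaller share in the low genes cannot be told apart from their lower CpG content. A match is a description of the letters in the window and not a binding site.

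Round spermatid genes overlapped the acrosome list in 9 members and stood lower too. Of 23 measured, 0 passed the test, 20 were lower in TSA and 3 higher, with a group median of -0.79 and medians of 0.08, -1.46 and -0.87 for replicates 1, 2 and 3. Crem (ENSMUSG00000063889) stood at 7633, 5235 and 4472 in TSA and 7688, 11635 and 10397 in MTX. The 3 TSA values were all below the 3 MTX values, though in replicate 1 by only 0.01. Its difference was -0.79 (SE 0.23), with an adjusted p of 0.983 (limma) that ran from 0.0246 to 1 over the alternatives. Tcp11, a testis gene of spermatids, was level at 30279, 25322 and 41958 against 26837, 25342 and 38781. Dkkl1, a secreted protein of the acrosome, was near level at 25832, 10371 and 19440 against 24262, 12806 and 23158. Without TSA replicate 2 the median of the list was -0.44.

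In elongating spermatids and the flagellum the difference was smaller and uneven. Of 24 elongating spermatid genes 15 were lower and 9 higher, with a median of -0.19 that became 0.04 with quantile normalisation and 0.01 without TSA replicate 2. The medians by number were 0.17, -0.63 and -0.15. Akap3, a scaffold protein of the sperm tail sheath, was at 30023, 2560 and 10311 in TSA against 26253, 24098 and 26495 in MTX, again low in replicates 2 and 3 alone. Tnp1, the first transition protein, was at 249488, 19232 and 49245 against 283416, 67740 and 104312. Hils1, a linker histone of spermatids that was chosen after its values were seen, was at 24106, 409 and 4525 against 23391, 4378 and 13420. The protamine gene Prm2 was at 240037, 74940 and 90829 against 173393, 115450 and 87124, so the RNA of this protamine showed no common direction.

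Among 26 axoneme and flagellum genes 19 stood lower. Their median was -0.26, with medians by number of 0.04, -0.53 and -0.23. With quantile normalisation the group median was -0.09, and without TSA replicate 2 it was -0.11. Spag6, of the central pair of microtubules, was at 4487, 1228 and 2125 in TSA against 3920, 2670 and 4040 in MTX. The dynein heavy chain Dnah8, a motor of the flagellum, went the other way at 47503, 48629 and 56377 against 49409, 32156 and 45591. Meig1, which acts in flagellum assembly, was at 100324, 46116 and 35841 against 97364, 87318 and 66126, with both low values in TSA.

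Set among all 15 libraries, TSA replicates 2 and 3 were the lowest for 3 of the lists just described. The mean log2 level of the acrosome list was 9.99 and 10.56 in TSA replicates 2 and 3, against 11.4 to 11.83 in the other 7 mitochondria-rich libraries of the series. TSA replicate 1 was at 12.19, within the range of 11.97 to 12.29 of the other 5 histone-rich libraries. Round spermatid genes were at 11.1 and 11.72 against 12.3 to 12.73, and axoneme genes at 12.06 and 12.24 against 12.3 to 12.56. The mean over all 17896 genes was also lowest in these libraries, at 8.27 and 8.30 against 8.38 to 8.49. The number of genes above 0 was 21925 and 21363 in TSA replicates 2 and 3. MTX replicates 2 and 3 had the highest numbers of the series, at 22858 and 22634. AA replicate 2, at 21870, had fewer than TSA replicate 2, and the histone-rich libraries had 20683 to 21244. The part of these library differences in the low genes was not tested.

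**Figure D3:**
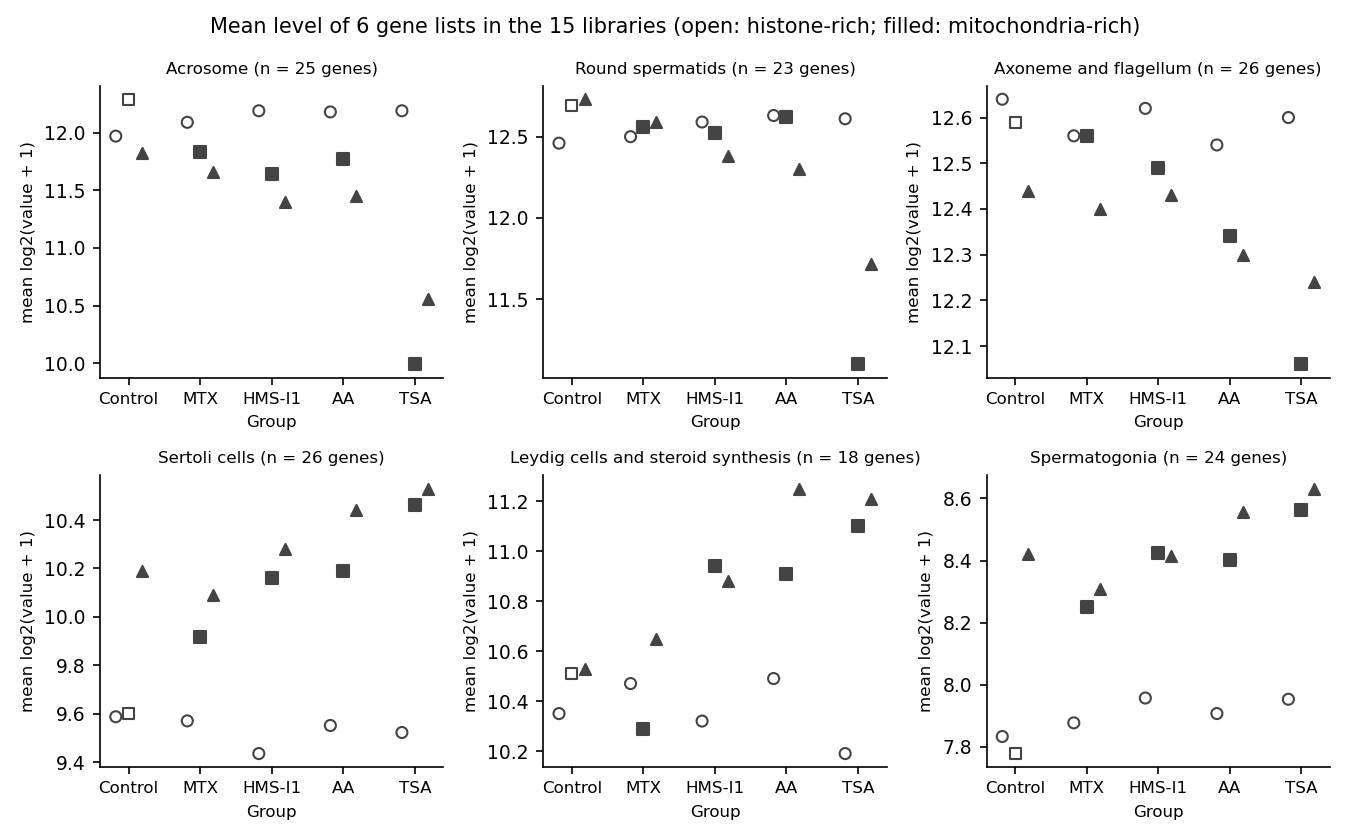
Mean log2(value + 1) of 6 gene lists in each of the 15 libraries, by group, with open marks for histone-rich and filled marks for mitochondria-rich libraries and circles, squares and triangles for replicates 1, 2 and 3. The vertical axes do not start at 0. TSA replicates 2 and 3 lie below all other libraries for the acrosome (9.99 and 10.56), round spermatid and axoneme lists, while TSA replicate 1 lies with the other histone-rich libraries.

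Genes of meiosis differed less. Of 24 genes of the meiotic axis and synapsis 16 were lower and 8 higher (median -0.20), and of 33 recombination genes 16 were lower and 17 higher (median 0.03). The axis median became 0.10 without MTX replicate 2 and 0.05 without TSA replicate 3. Sycp1, the central rod of the synaptonemal complex, was at 14888, 18327 and 6815 in TSA and 12410, 59272 and 8786 in MTX, where MTX replicate 2 stood alone above the rest. Msh4, which stabilises crossover intermediates, was at 693, 563 and 475 against 881, 1101 and 771. The Msh4 values did not overlap, with a difference of -0.67 (SE 0.23, limma adjusted p = 0.983). Cdk2, a kinase bound to crossovers and telomeres in prophase, was at 2022, 2155 and 3036 against 1653, 1398 and 2009, higher in each pair by 0.29, 0.62 and 0.60. The recombination median ran from -0.05 (without MTX replicate 3) to 0.13 (without MTX replicate 2). Among 19 pachytene genes 11 were lower, with a median of -0.09 that became 0.02 without MTX replicate 2. Of those, 2 did not overlap between the groups, where 1.99% of all genes were lower without overlap. They were Ldhc at 120749, 80489 and 110627 against 132091, 164584 and 179159, and Adad1, an RNA-binding protein of germ cells, at 7482, 7162 and 8225 against 8736, 11745 and 11738.

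The lists of spermatogonia, Sertoli cells and Leydig cells lay higher in TSA replicates 2 and 3, by amounts much smaller than the acrosome difference. MTX replicate 2 had the lowest mean log2 level of the mitochondria-rich libraries for each list, at 8.249, 9.919 and 10.29. TSA replicates 2 and 3 stood at 8.563 and 8.632, 10.46 and 10.53, and 11.1 and 11.21. AA replicate 3 came close to or above these levels, at 8.556, 10.44 and 11.25, so they were not particular to TSA. Of 24 spermatogonia genes 19 were higher, with medians by number of 0.03, 0.40 and 0.36. Uchl1, a ubiquitin hydrolase of spermatogonia, was at 1154, 992 and 2056 in TSA and 765, 576 and 1502 in MTX, higher in each pair with overlapping groups. Tcf3, a transcription factor, was at 374, 499.9 and 656 against 205, 364 and 463. Members of this list with far higher counts did not follow, and 5 of the 24 were lower. Ddx4 was at 21709, 22858 and 13696 in TSA and 19915, 31283 and 16188 in MTX. Dazl was at 9089, 8866 and 4317 against 9024, 10159 and 3638. Of 26 Sertoli cell genes 23 were higher, with medians of -0.02, 0.59 and 0.48. Clu, a secreted chaperone, was at 16720, 44282 and 43173 against 16872, 24292 and 24560, level in replicate 1 and higher in replicates 2 and 3. Inha, the inhibin subunit by which Sertoli cells restrain the pituitary, was at 1490, 1526 and 2413 against 1451, 525 and 1766. No member of these lists passed.

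Among 18 Leydig cell and steroid genes 16 stood higher by group means. The list had medians of -0.38 in replicate 1, 0.76 in replicate 2 and 0.58 in replicate 3. Cyp17a1, which converts progesterone towards androgens, was at 8288, 17637 and 22070 in TSA and 12540, 9228 and 10803 in MTX. The order of the groups was thus reversed between replicate 1 and the others. Nr5a1, the transcription factor of steroid cells, was at 793, 1064 and 2220 against 775, 480.2 and 1178. The medians over the groups were 0.25 for spermatogonia, 0.33 for Sertoli cells and 0.37 for Leydig cells. They ran from 0.10 to 0.63, from 0.17 to 0.74 and from 0.18 to 0.65 as single libraries of either group were left out. The highest value came without TSA replicate 1 for each of these lists.

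**Figure D4:**
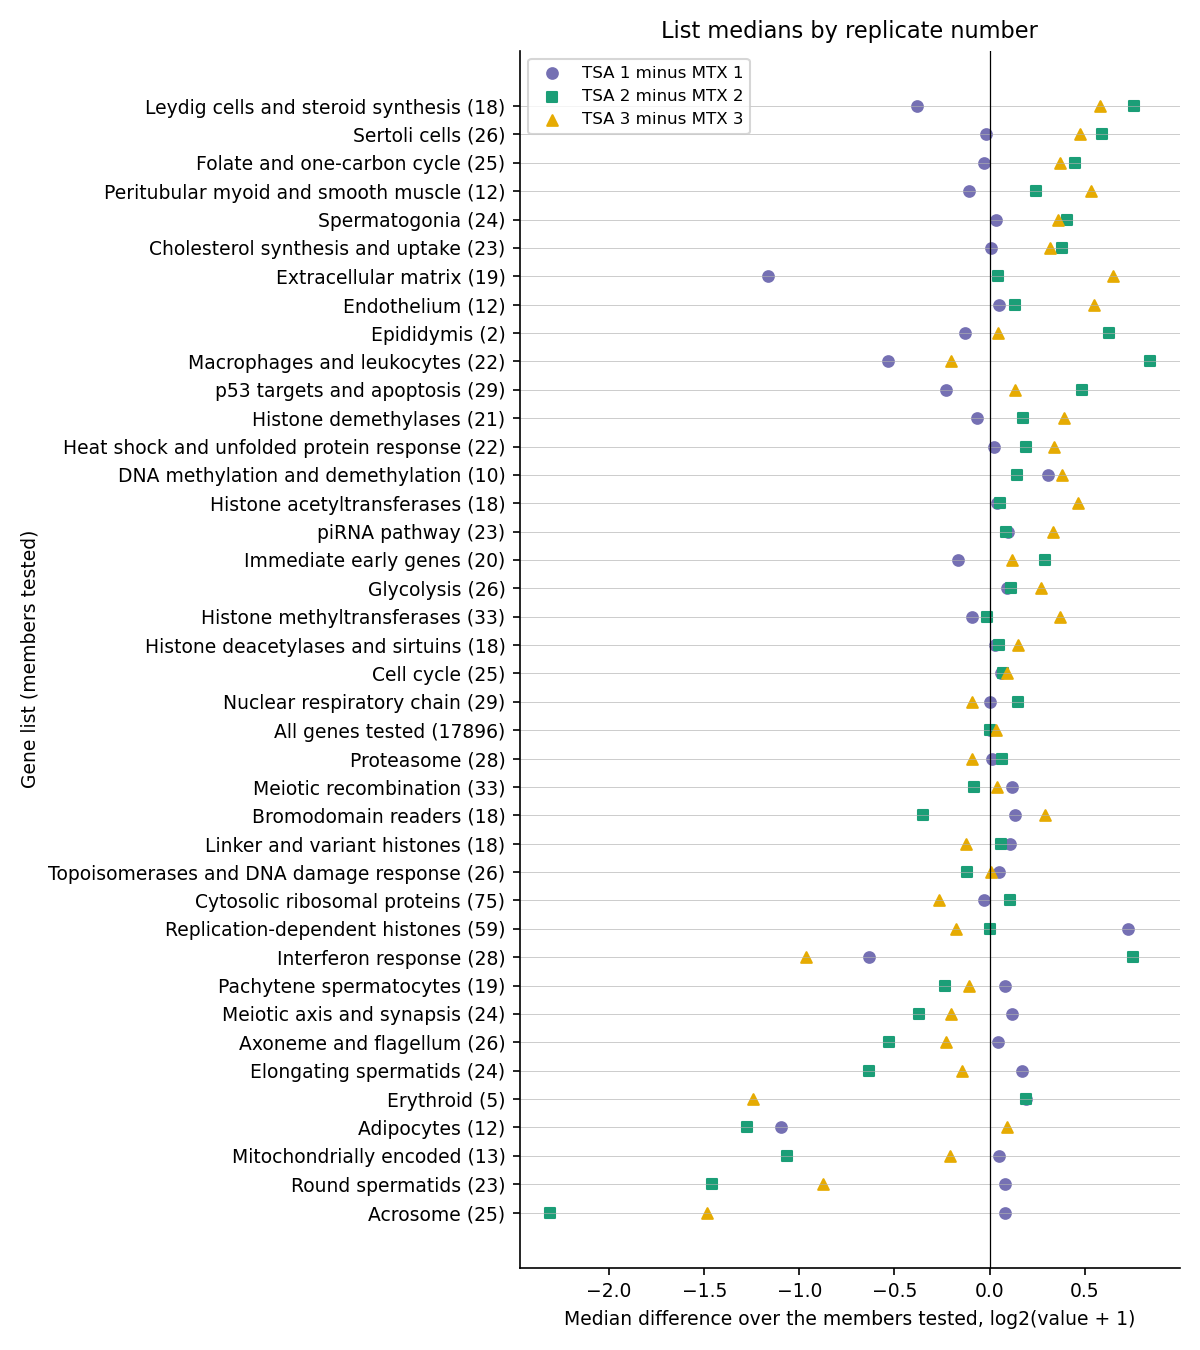
Median difference TSA minus MTX over the members of each of 39 gene lists and over all genes tested, in log2(value + 1), by replicate number (circle 1, square 2, triangle 3), with the number of members in brackets. The acrosome and round spermatid lists lie at -2.31 and -1.46 for replicate 2 and near 0 for replicate 1, and the matrix, adipocyte, macrophage and interferon lists spread widely between numbers.

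Folate and one-carbon genes, which supply single carbon units for nucleotides and methylation, stood higher in TSA for 23 of the 25 measured. The median was 0.29, and the medians by number were -0.03, 0.45 and 0.37. As single libraries were left out the median ran from 0.12, without MTX replicate 2 or TSA replicate 3, to 0.43, without TSA replicate 1. In 4 of the 25 all TSA values lay above all MTX values, and in 1 all lay below, where 1.94% and 1.99% of all genes did so. Mtr, the methionine synthase, was at 2095, 2094 and 2535 in TSA and 1931, 1585 and 1625 in MTX. Its reductase Mtrr was at 500.1, 401 and 458 against 275, 280.1 and 363. Gart, an enzyme of purine synthesis that uses folate, was at 1481, 1236 and 2029 against 1206, 764 and 1180, and Mat2a, which makes the methyl donor S-adenosylmethionine, at 4866, 5508 and 6386 against 4721, 4027 and 4778. The differences of these genes were 0.39 (SE 0.24), 0.57 (SE 0.26), 0.59 (SE 0.27) and 0.30 (SE 0.17), and none passed (limma adjusted p of 0.983 or more). Mthfd2l, a mitochondrial folate dehydrogenase, was the gene below, at 184, 202 and 201 against 269, 269 and 338, named after its values were seen.

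Enzymes that write, erase or read histone marks had group medians of 0.00 to 0.22 as lists. The 18 histone deacetylase and sirtuin genes had a median of 0.07 with 10 higher, and medians by number of 0.03, 0.05 and 0.15. Hdac1, the most widely used nuclear deacetylase, was at 4100, 7349 and 8918 in TSA and 4433, 7568 and 8589 in MTX, where library number and not group set the level. Hdac7 was at 127, 128 and 177 against 81.6, 94.5 and 83.0, without overlap, with a difference of 0.71 (SE 0.29, limma adjusted p = 0.983). Sirt6 was higher in each pair at 80.7, 56.7 and 86.0 against 30.1, 42.1 and 62.0, with overlapping groups. Acetyltransferases had a median of 0.22 (12 of 18 higher), methyltransferases 0.07 (22 of 33), demethylases 0.17 (16 of 21) and bromodomain readers 0.00 (9 of 18). In replicate 3 these lists lay higher in TSA, at medians of 0.47, 0.37, 0.39 and 0.29, while in replicate 2 they were at 0.05, -0.01, 0.17 and -0.35 and in replicate 1 at 0.04, -0.09, -0.07 and 0.13. As single libraries were left out, the deacetylase median ran from 0.01 (without TSA replicate 3) to 0.18 (without MTX replicate 3) and the acetyltransferase median from 0.07 (without TSA replicate 1) to 0.25 (without TSA replicate 2). The methyltransferase median ran from 0.03 (without MTX replicate 3) to 0.24 (without MTX replicate 2), the demethylase median from 0.12 to 0.31 for the same libraries, and the bromodomain median from -0.24 (without TSA replicate 2) to 0.38 (without MTX replicate 2).

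Within these lists a few genes followed the acrosome genes. Cdyl, a chromodomain protein abundant in spermatids, was at 8870, 1147 and 3103 in TSA and 8391, 12828 and 10258 in MTX. Atad2, a bromodomain ATPase, was at 2996, 994 and 918 against 3099, 3798 and 2036, and Suv39h2, the testis form of the H3 lysine methyltransferase of heterochromatin, at 1665, 1079 and 796 against 1792, 2639 and 1534. In each of them TSA replicate 1 was near MTX replicate 1, and TSA replicates 2 and 3 were the lowest of the 6 libraries. Other members stood above MTX in every library. Trim28, a corepressor that recruits histone methylation, was at 9700, 9838 and 9487 against 7707, 7296 and 6785. Ehmt1, which methylates histone H3, was at 453, 636 and 456 against 391, 380 and 267. Kdm2b, a demethylase that binds unmethylated CpG, was at 2014, 1900 and 2246 against 1397, 1542 and 1714. H2afy, the macroH2A variant, is a histone and not an enzyme or reader of marks, and was at 2179, 2163 and 2409 against 1494, 1766 and 2043. The separate list of linker and variant histones had a median of 0.006, with 9 of 18 higher. The differences were 0.42 (SE 0.19) for Trim28, 0.58 (SE 0.28) for Ehmt1, 0.41 (SE 0.23) for Kdm2b and 0.36 (SE 0.20) for H2afy, and none passed (limma adjusted p of 0.983 or more). Of 10 genes of DNA methylation 7 were higher (median 0.29), among them Tet3, an enzyme that oxidises methylcytosine, at 300.0, 345 and 321 against 259.9, 229 and 247.

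Since no gene passed, further genes were named by size, from protein-coding genes whose groups did not overlap, by the smallest of their pair differences. Genes with only a model number for a symbol (Gm and digits) were left out of this choice, although some of them, such as Gm21704 on the higher side and Gm20908, Gm20873, Gm49380 and Gm20773 on the lower side, had larger smallest differences. Chosen on the higher side were Irak2, Elovl1, Axin2, Phf21b, Fndc4, Zfp64, Stx1a, Fam53b, Rtkn2, Amacr, Slc16a13 and St6galnac4, with group differences of 0.80 to 1.32. Irak2, a kinase of Toll-like and interleukin-1 receptor signalling, was at 102, 120.0 and 127 in TSA and 39.3, 55.3 and 62.6 in MTX, a difference of 1.16 (SE 0.44). Axin2, a feedback inhibitor and common readout of Wnt signalling, was at 106, 137 and 203 against 43.2, 77.1 and 79.1. Stx1a, a syntaxin of vesicle fusion, was at 138, 114 and 129.7 against 52.8, 53.6 and 75.1. The choice required the same sign in all 3 pairs and favoured like differences, so their likeness in these genes is not a result. For Irak2 the differences were 1.35, 1.10 and 1.01. Elovl1, which lengthens very long fatty acids, was at 174, 252 and 290.1 against 82.6, 131 and 163. Amacr, a racemase of branched fatty acid breakdown, was at 238, 187 and 218 against 127, 67.9 and 137. Fndc4, a secreted fibronectin domain protein, was at 58.1, 105 and 91.5 against 31.8, 20.4 and 51.8, with its largest difference in replicate 2.

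On the lower side were Cldn34c1, Hmcn1, Mmp12, Vav3, Ptpn22, Fam185a, Lrrc37a, Fam228b, Thoc1, Mpv17l, Arl5b and Chrna5, with group differences of -2.65 to -0.56. Vav3, a guanine nucleotide exchange factor, was at 369.9, 45.8 and 186 in TSA and 685, 1389 and 848 in MTX, a difference of -2.65 (SE 0.61). Cldn34c1, an X-linked claudin, was at 27.7, 11.6 and 27.8 against 57.5, 119 and 114, and Chrna5, a nicotinic receptor subunit, at 261, 56.8 and 70.6 against 367, 309 and 266. Their adjusted p was 0.983 (limma) and fell under 0.05 only without TSA replicate 1, at 0.00797, 0.0362 and 0.00496, with 1 as the highest value over the alternatives. Hmcn1, a matrix protein, was at 42.8, 43.9 and 36.0 against 124, 83.5 and 76.5. Thoc1, of the complex that couples transcription to RNA export, was at 3712, 5163 and 3051 against 5346, 9325 and 5768. Ptpn22, a phosphatase of lymphocyte signalling, was at 21.3, 30.4 and 24.8 against 100.1, 54.2 and 76.7, and Mmp12, the macrophage elastase, at 26.4, 45.6 and 25.6 against 152, 527 and 49.0. The TSA values of Hmcn1, Ptpn22 and Mmp12 lay close together, and the MTX values spread widely.

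Only 9 genes were over 1 unit higher in all 3 pairs (0.0503%) and 65 lower (0.363%). Of these 74, 34 were protein-coding, where 16605 of all 17896 genes tested were. On the Y chromosome, which held 347 of the genes tested, lay 4 of the 9 higher genes and 26 of the 65 lower genes. The gene called by the fit of the 6 libraries alone was among the 74. Gm21704, an uncharacterised gene of the Y chromosome, was at 278, 398 and 285 in TSA and listed at 0 in MTX replicates 1, 2 and 3 (limma adjusted p = 0.0128 in that fit, 0.105 in the same 6 libraries with the replicate number as a block and 0.983 over 15 libraries). It was also listed at 0 in HMS-I1 replicate 3. The genes called lower in the mitochondria-rich libraries alone, Gm20831, Gm21425, Gm21678 and Gm21660, are Y-linked as well. Each was listed at 0 in TSA replicates 2 and 3 and stood at 60.9 to 151 in MTX replicates 2 and 3. These 5 genes, chosen after their values were seen, belong to families of near-identical copies among which reads cannot be placed with certainty, and an exact 0 can be a failed estimate, so their values are uncertain.

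The Y chromosome held the largest share of low genes. Over 1 unit lower in both replicates 2 and 3 were 190 of the 347 Y-linked genes tested (54.8%) and 185 of 879 X-linked genes (21.1%), against 4.79% to 10.9% on the autosomes. Among protein-coding genes the shares were 59.6% for Y and 17.5% for X. The Y-linked median was 0.00 in replicate 1, -1.77 in replicate 2 and -1.46 in replicate 3. Of the 347 Y-linked genes, 136 were protein-coding. Y-linked genes include families of near-identical copies, among which reads cannot be placed with certainty, so the Y-linked shares and medians are uncertain. Pseudogenes were low more often than protein-coding genes in the same pairs, with 38.8% of unprocessed and 33.8% of processed pseudogenes against 7.51%. Of the 190 low Y-linked genes only 81 were protein-coding, so Y-linked pseudogenes can be part of these shares. The shares were not separated by chromosome.

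Single Y-linked genes, chosen after their values were seen, differed in this respect. Rbm31y, an RNA-binding protein of spermatids, was at 2069, 67.0 and 286 in TSA and 2670, 2159 and 1607 in MTX. Zfy2, a zinc finger protein of late meiosis and spermatids, was at 651, 217 and 109 against 711, 762 and 322, and Zfy1 at 305, 204 and 81.6 against 351, 534 and 247. Ssty2, of a multicopy family expressed in spermatids, was at 951, 185 and 162 against 889.7, 585 and 635, and Sly, which represses sex-linked genes in spermatids, at 1561, 957 and 326 against 1479, 3924 and 756. These genes were near level in replicate 1 and low in replicates 2 and 3. Other Y genes had no common direction. Ddx3y, an RNA helicase, was at 1185, 1427 and 717 against 1260, 1543 and 709. Uba1y, a ubiquitin-activating enzyme, was at 946, 793 and 1441 against 1089, 593 and 1140. Kdm5d, an H3 lysine demethylase, was at 323, 363 and 205 against 508, 367 and 168.

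**Figure D5:**
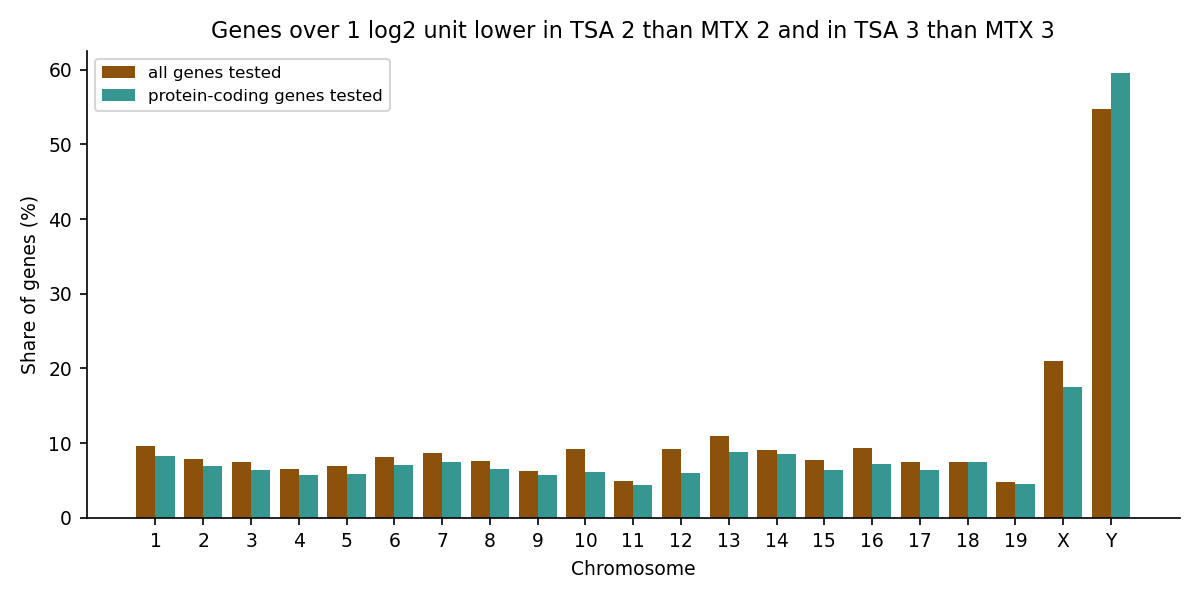
Share of the genes of each chromosome, in percent, that were over 1 unit lower in TSA than MTX in both replicates 2 and 3, for all genes tested (brown) and for protein-coding genes (green). The Y chromosome stands at 54.8% and 59.6% and the X chromosome at 21.1% and 17.5%, above the autosomes. The Y-linked shares include multicopy genes whose values are uncertain.

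Genes with the largest differences within a replicate number were named by rule, 5 in each direction. In replicate 2 the low genes included Slc10a2, a bile acid transporter, at 0.528 in TSA and 107 in MTX, Cst13, a cystatin, at 37.6 and 2148, and Prss52, a testis serine protease, at 31.9 and 1758. In replicate 3 these genes stood at 23.8 and 195, 767 and 4891, and 536 and 2493. In replicate 1 they stood at 208 and 223, 6035 and 6182, and 2980 and 2832, nearly level. Tmco5b, a coiled-coil protein gene, followed them with 258 in TSA and 1969 in MTX for replicate 3, and Creb5 with 399 and 3556. The low side of replicate 3 also held Ms4a4b and Ly6c2, both genes of lymphoid or myeloid cells, at 40.0 in TSA and 463 in MTX and at 25.9 and 231. These immune genes were not low in replicate 2, where they stood at 356 and 380.5 and at 156 and 65.7.

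On the high side, the genes named in replicate 2 included Proser2 and Myof, a membrane repair protein, the latter at 778 in TSA and 146 in MTX, and those of replicate 3 included Acan, a cartilage proteoglycan (93.3 and 17.0), Aff2, Ugt1a6b and Efnb3. In replicate 1 they included Cntnap4 (167 and 16.0) on the high side and, on the low side, Traf3ip2, an adaptor of interleukin-17 signalling (9.84 and 143), and Cfd. Several of the largest differences were in near-identical copies listed at 0 in 1 of the groups. In replicate 1, 1700049E17Rik1 was listed at 0 in TSA and 503 in MTX, and its copy 1700049E17Rik2 at 334 and 0. Hist1h2bq was at 0 and 412, and Hist1h2br at 519 and 0. Such pairs, with Fam177a, Rbmy, Btbd35f15, Fam205a3, Srp54b, Pcdhgc4 and Rps27rt, which have close copies or share exons with neighbours, are uncertain because reads can be split among copies.

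Lists of immune, connective and fat tissue genes differed between replicate numbers in direction. Interferon response genes had medians of -0.63, 0.76 and -0.96, with 10 of 28 over 1 unit higher in replicate 2 (4.16% of all genes) and 12 over 1 unit lower in replicate 3 (13.1% of all genes). Gbp2, an interferon-induced GTPase, was at 52.9, 1258 and 373 in TSA and 98.8, 861 and 1291 in MTX. Macrophage and leukocyte genes were at medians of -0.53, 0.84 and -0.20, and extracellular matrix genes at -1.16, 0.04 and 0.65. Col3a1, a fibrillar collagen, was at 1706, 7182 and 8121 against 5904, 8688 and 5740. Adipocyte genes were at -1.09, -1.27 and 0.09. Fabp4, the fatty acid carrier of fat cells, was at 22.6, 25.1 and 12.6 against 165, 571 and 19.99, and Cfd, adipsin, at 0, 7.05 and 0 against 100.3, 202 and 0. The mean log2 level of the adipocyte list was 6.479 and 6.89 in MTX replicates 1 and 2, against 4.639 to 5.123 in the other 4 libraries. Not every member followed. Adipoq was highest in TSA replicate 1 (596), and Lpl was higher in TSA replicate 2 (437) than in MTX replicate 1 (278). For none of these lists did the replicate numbers give a common direction.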

How the data were processed

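RNA of whole testes was sequenced in 15 libraries, grouped by their titles. The deposited table holds a normalised signal per gene, in normalised counts made, per the submitters' processing notes, with FastQC 0.11.9, Salmon 0.12.0, which estimates counts per transcript, and DESeq2 1.34.0, on the build GRCm39. The values are not whole numbers, between 5.87% and 8.81% of low values in the 6 libraries were whole multiples (within 0.02) of the commonest value above 0, and depth is unknown, so no count model or counting interval was used. Whether counting used strand is not stated in the labels or notes. Symbols and chromosomes were taken by Ensembl number from an annotation of GRCm38 for 35877 of 36118 genes, 241 had none, and no gene coordinates are given. Promoters are from RefSeq, on GRCm38.p6, matched by symbol for 13001 tested genes.

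Values were analysed as log2(value + 1), which understates the change of low genes. For genes with a mean of at least 10, limma 3.58.1 in R 4.3.3 (lmFit, eBayes with trend) fitted 5 group means to 15 libraries, with 10 residual degrees of freedom. Tests were two-sided, with p-values adjusted by Benjamini and Hochberg over 17896 genes and a threshold of 0.05. The fit was tested on simulated data with independent noise and no library split, with 50 genes for each change. It called 14% of the genes changed by 1 unit, 48% of those changed by 2 units and 88% by 4 units. Of genes changed by -2 units it called 42%, and of unchanged genes 0.0283%. Many changes of 1 or 2 units would thus be missed. Differences by replicate number set 1 library against 1 library and have no test. Replicate numbers come from the titles. The deviations of same-numbered TSA and MTX libraries from their group means correlated at 0.644, 0.638 and 0.643, so the numbers pair the libraries, and a fit with the number as a block was run beside the main one. Histone-rich libraries were those with a mean log2 value over 6 for 60 histone genes named Hist.

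The comparison, the gene lists and the naming rule were chosen with earlier results of these data known. The rule took 12 non-overlapping protein-coding genes in each direction with a proper symbol (no gene model, Rik or clone name) and a 6-library mean of 50 or more, ordered by the smallest pair difference, 2 genes of highest mean and 2 of smallest p for each list, and 5 genes in each direction for each pair. Not every gene it takes is reported, and genes outside it are marked. Lists are described by counts and medians, with no set test. The alternatives were other pseudocounts and filters, the 6 libraries alone, the replicate block, the library set as a term, quantile normalisation, median centring, robust eBayes and each library left out.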

Additional observations from a re-analysis of the deposited data

How the results depend on the processing

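A count of 0 calls does not show that the groups were alike, and low values in replicate 1 of both groups rest on a coarser step than in replicates 2 and 3. The count of genes called was 0 with either other pseudocount, either other filter, the library set as a term, quantile normalisation, median centring and robust eBayes. With the replicate block it was 0 in the fit of 6 libraries (smallest limma adjusted p = 0.105) and 0 over 15 libraries (0.387). The block removed the call of Gm21704, made in the 6 libraries without it, and changed no other call. Over 15 libraries the number did not follow the library type. Control replicate 2 was histone-rich, while replicate 2 of the other groups was mitochondria-rich. The 6 libraries alone gave 1. Leaving out single libraries gave 0 to 767, the highest without TSA replicate 1, where an imbalance of library types enters by construction. The mitochondria-rich libraries alone, an alternative chosen after seeing the data, gave 4.

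Genes without overlap and higher in TSA numbered 535 with quantile normalisation, and 254 were lower. Quantile normalisation shifted the median of all genes to 0.096. It gave 1317 and 851 genes over 1 unit higher in replicates 2 and 3, and over all 3 pairs 32 higher and 30 lower. With a pseudocount of 10, the genes over 1 unit higher were 382, 438 and 217 in replicates 1, 2 and 3, and 569 were lower in replicate 1, with 5 higher and 18 lower in all 3. With a mean of at least 50 the counts were 243, 449 and 198 higher and 390 lower in replicate 1, with 3 higher and 14 lower in all 3. Fewer low genes entered these counts by construction. Of the alternative values of list medians, 409 moved by less than the spread between the replicate numbers and 59 by more. The differences of the 43 genes with a printed or ranged fit kept their direction in each alternative run, and 6 of the genes passed the threshold without TSA replicate 1.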

Other observations

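Genes of other functions stood low in the same libraries as the acrosome genes. Slc16a7, a carrier of lactate and pyruvate, was at 18939, 3176 and 5020 normalised counts in TSA replicates 1, 2 and 3 and at 17733, 13281 and 14712 in MTX. Klf4, a transcription factor that is also expressed in spermatids, was at 3095, 953 and 998 against 3021, 3199 and 2175, and Hsf2, a heat shock factor of germ cells, at 2900, 1370 and 901 against 3104, 3896 and 2211. From lists of other cell types came genes of the same form, with Aif1, listed among macrophage genes, at 12881, 1304 and 2790 against 10315, 4942 and 6250, and Adipoq, listed among adipocyte genes, at 596, 18.7 and 48.1 against 541, 227 and 244. In these 5 genes TSA replicate 1 was within 0.4 units of MTX replicate 1, and TSA replicates 2 and 3 were the lowest of the 6 libraries.

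Btbd18, which promotes transcription of piRNA precursors, stood higher in each TSA library, at 218, 157 and 187 against 98.8, 114 and 115, and Casp9, the initiator caspase of the mitochondrial path, at 453, 364 and 538 against 331, 175 and 357. The differences were 0.76 (SE 0.29) and 0.70 (SE 0.32), and neither passed (limma adjusted p of 0.983 or more). Ccnb1ip1, a crossover regulator, was at 317628, 205 and 212 in TSA and 222044, 217 and 331 in MTX, and Hist1h1t, the linker histone of spermatocytes, at 20960, 94.2 and 101 against 19978, 47.4 and 132, so both followed the library type and not the group.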
